A study of Homo sapiens with 2 samples.

Results

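Prostaglandins are short-lived lipids that lung fibroblasts make from arachidonic acid. The genes described here were 10 genes of prostaglandin synthesis, breakdown and sensing, chosen by name: PTGS1, PTGS2, PTGES, PTGIS, PTGDS, HPGD, PTGER2, PTGER4, PTGFR and PTGIR. All 10 were found, of 21743 genes that could be named, through the RefSeq accession printed with each spot, and they were covered by 13 probes and 22 spots. The cells were MRC-5, a cell line established from human fetal lung fibroblasts, given either control siRNA or siRNA against periostin (POSTN), a matricellular protein, the latter at 10 nM for 48 h. RNA of each condition was hybridised to 1 single-colour Agilent array. Without replicates the difference has no replicate check, and neither a test nor a p-value is given. The cells are 1 line from a single source and the RNA is that of a whole culture, so fewer cells making a transcript and less transcript per cell cannot be told apart.

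Cyclooxygenases turn arachidonic acid, released from membranes by phospholipases, into a common unstable precursor, from which terminal synthases make the individual prostaglandins. PTGS1 encodes the largely constitutive cyclooxygenase-1 and PTGS2 the inducible cyclooxygenase-2. The products act through G protein-coupled receptors, of which EP2, EP4 and IP raise cyclic AMP and FP raises intracellular calcium, and they are cleared by oxidation. In lung fibroblasts, prostaglandin E signalling through cyclic AMP is known as a brake on proliferation and collagen production, and the study asked how periostin acts on the growth of these cells.

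Signals are the background-subtracted spot intensities scaled to a common 75th percentile of 377 on both arrays, and a difference is the log2 ratio of the periostin siRNA signal to the control signal, negative where the signal was lower with periostin siRNA. The error beside a ratio is the propagated error of a single spot or, where a probe was printed 10 times, the SD over its spots, so the difference between cultures is not in either. The propagated error came close to 0.20 for bright single spots whatever their signal. The measured SD of the log2 ratio between spots was smaller, 0.12 when pooled over 667 probes printed 10 times with all spots well above background. No spot under 7.55 with control siRNA or under 7.77 with periostin siRNA was flagged as well above background, and no spot was saturated on either array. The knocked-down gene, POSTN, went from 2638 to 280 (log2 ratio -3.24 ± 0.20, 1 spot). All 9 fibroblast markers examined, among them COL1A1, COL1A2, VIM, THY1 and DCN, were well above background on both arrays. The epithelial markers CDH1 and KRT5, the endothelial marker PECAM1 and 5 of 10 leukocyte, mast cell and platelet markers (LAPTM5, MS4A1, CPA3, TPSAB1 and PPBP) were not well above background on either array. The other 3 of 5 epithelial markers were, on both arrays: EPCAM (34.6 and 135), SCGB1A1 (104 and 110) and SFTPC (33.8 and 53.3). Of 4 endothelial markers, 3 were well above background with control siRNA and 2 with periostin siRNA, VWF at 72.1 and 79.8 and CDH5 at 49.5 and 46.5 on both arrays. Of the 10 leukocyte, mast cell and platelet markers, 4 were with control siRNA and 5 with periostin siRNA, and the platelet marker PF4 went from 35.8 to 10.6. The summed signal went from 368588 to 325570 for the fibroblast markers, from 177 to 305 for 5 epithelial markers, from 133 to 130 for 4 endothelial markers and from 1713 to 2576 for the 10 leukocyte, mast cell and platelet markers, of which CD68, also expressed by fibroblasts, made up most. Those sums mix probes whose levels are not comparable, and VIM alone gave 189263 and 174022. Of the 9 fibroblast markers, 6 had a log2 ratio below 0 and 3 above it, from -0.90 (PDGFRA) to 0.83 (LUM). The part of the markers of any cell type in the ratios below was not tested.

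The promoters of PTGS2, PTGS1 and PTGFR, the members that were lower by more than 1.5-fold (a threshold set after the values were seen) and had an entry in the RefSeq promoter table (GRCh38.p14), are shown with that of PTGER2, the member with the highest ratio. Each run is the 250 bases before an annotated transcription start, 5′ to 3′ on the strand of the gene, and capitals mark matches on either strand to TGACG (part of a cyclic AMP response element), TATAAA (the TATA box), CCAAT (the CCAAT box) or GGGCGG (the GC box). PTGS1 has a pair of annotated starts and both are shown. PTGS2 lies on the minus strand and the others on the plus strand, at chr1:186680424-186680673 for PTGS2, chr9:122370283-122370532 and chr9:122375052-122375301 for the first and second start of PTGS1, chr1:78490724-78490973 for PTGFR and chr14:52314062-52314311 for PTGER2.
PTGS2: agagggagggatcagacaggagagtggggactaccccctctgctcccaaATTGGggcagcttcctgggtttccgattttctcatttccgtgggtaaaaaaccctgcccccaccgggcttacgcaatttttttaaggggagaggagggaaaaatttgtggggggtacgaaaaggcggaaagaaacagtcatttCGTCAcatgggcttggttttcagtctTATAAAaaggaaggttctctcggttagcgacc
PTGS1 first start: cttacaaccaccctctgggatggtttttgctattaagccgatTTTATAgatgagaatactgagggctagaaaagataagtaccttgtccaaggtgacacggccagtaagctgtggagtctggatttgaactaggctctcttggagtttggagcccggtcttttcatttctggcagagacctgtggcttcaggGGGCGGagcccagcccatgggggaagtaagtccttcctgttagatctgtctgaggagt
PTGS1 second start: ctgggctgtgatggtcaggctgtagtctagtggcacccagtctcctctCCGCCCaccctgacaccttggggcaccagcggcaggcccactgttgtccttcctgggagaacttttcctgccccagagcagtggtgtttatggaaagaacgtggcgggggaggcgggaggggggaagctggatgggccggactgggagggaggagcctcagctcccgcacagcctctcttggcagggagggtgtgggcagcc
PTGFR: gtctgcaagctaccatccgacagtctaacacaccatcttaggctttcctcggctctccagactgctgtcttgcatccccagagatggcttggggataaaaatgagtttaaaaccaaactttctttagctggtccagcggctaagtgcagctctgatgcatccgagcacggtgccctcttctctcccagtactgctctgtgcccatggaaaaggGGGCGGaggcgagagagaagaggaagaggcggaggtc
PTGER2: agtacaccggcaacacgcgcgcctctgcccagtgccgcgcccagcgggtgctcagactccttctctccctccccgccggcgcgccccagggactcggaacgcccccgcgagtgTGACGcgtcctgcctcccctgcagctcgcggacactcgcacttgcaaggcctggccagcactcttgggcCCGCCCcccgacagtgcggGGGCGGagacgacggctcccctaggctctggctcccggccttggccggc
The PTGS2 window held TGACG on the opposite strand 58 bases before the start, TATAAA 32 bases before it and CCAAT on the opposite strand 201 bases before it, and it held no GGGCGG. PTGER2 held TGACG 137 bases before the start, together with 2 copies of GGGCGG, 1 on each strand. PTGFR held a single GGGCGG and none of the other motifs, and each PTGS1 window held 1 GGGCGG, with TATAAA on the opposite strand in the first window alone. TGACG was present in 21.2% of all 35116 windows of this length in the table, TATAAA in 10.7%, CCAAT in 32% and GGGCGG in 42.6%. Over the 10 windows of the 8 members with an entry, TGACG was found in 3, those of PTGS2 and PTGER2 and 1 of HPGD. The whole palindrome TGACGTCA, which contains TGACG and was present in 1.65% of all windows, was in none of the 10. The NF-κB consensus, searched as GGGRNWYYCC without mismatches (R is A or G, N any base, W A or T, Y C or T), was found in 1, that of PTGER4. It was present in 5.21% of all windows. Stretches that depart from this pattern by a letter were not counted, so a window without a match may still hold an NF-κB site. Members with a lower and with a higher ratio thus both held TGACG, and these matches are a description of the letters in the windows.

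Both cyclooxygenase genes were lower with periostin siRNA. PTGS2 was measured by 1 probe printed 10 times. Its signal ranged from 421 to 485 over the control spots, with a median of 439, and from 227 to 259 over the periostin siRNA spots, with a median of 243. All 10 spots were lower with periostin siRNA. They are repeats of 1 probe on 1 array per condition, so their separation describes these arrays and not a difference between cultures. How many other probes printed 10 times separated in the same way was not counted. The log2 ratio was -0.85 ± 0.07 (SD over 10 spots), a signal 1.80-fold lower, and single spots lay between -0.99 and -0.76. PTGS1 was measured by 2 single spots. The brighter went from 8882 to 5447, a log2 ratio of -0.71 ± 0.20 or 1.63-fold lower, and the other 4418 and 3131, a log2 ratio of -0.50 ± 0.20. The probes differed by 0.21 with a spot error of 0.29, so they cannot be told apart in this respect. The log2 ratio of PTGS2 lay 0.14 below that of the brighter PTGS1 probe, with an error of 0.22. By that probe, the inducible and the constitutive enzyme could not be told apart either. The other PTGS1 probe, at -0.50, and the mean over both, at -0.60, lay further from PTGS2.

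**Figure D1:**
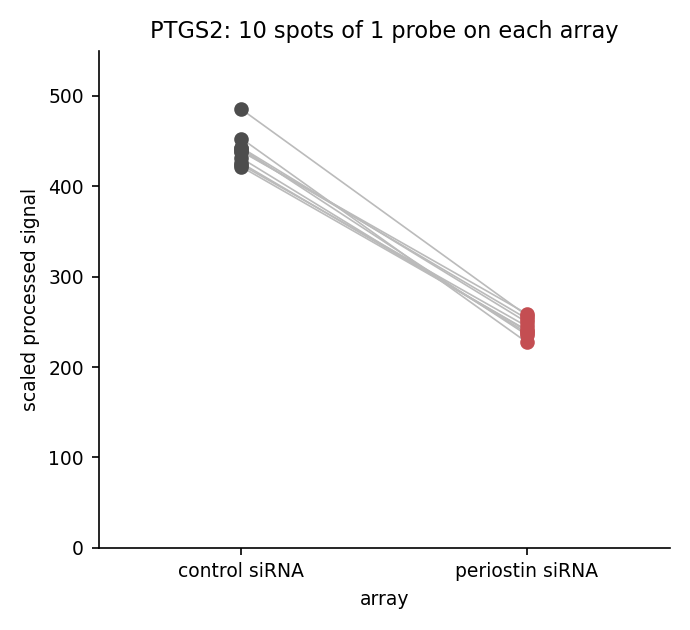
Scaled processed signal (vertical axis, starting at 0) of the 10 spots of the PTGS2 probe with control siRNA (grey) and with periostin siRNA (red), with lines joining spots at the same array position. Every spot was between 421 and 485 in the control and between 227 and 259 after knockdown.

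PTGES and PTGDS, the terminal synthases with a ratio, did not show a difference beyond the propagated spot error. PTGES, the inducible microsomal prostaglandin E synthase, gave 68.0 with control siRNA and 71.5 with periostin siRNA. Its log2 ratio, 0.07 ± 0.21, was smaller than the spot error, and its sign changed under median scaling, to -0.06, and under quantile normalization. The log2 ratio of PTGS2, which supplies the substrate of this enzyme, lay 0.92 below that of PTGES, with an error of 0.22. PTGDS, the lipocalin-type prostaglandin D synthase, gave 2566 and 2866, a log2 ratio of 0.16 ± 0.20, again within the propagated spot error, though above the pooled SD between spots of 0.12. PTGIS, the prostacyclin synthase, was not well above background on either array, with signals of 1.73 and 1.78, and no ratio can be given. HPGD, the dehydrogenase that begins the breakdown of prostaglandins, was likewise not well above background, with 1.93 and 1.97. Each of these 4 genes was read by 1 spot, so a low reading of PTGIS or HPGD rests on a single probe and a change below the background could not be detected.

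**Figure D2:**
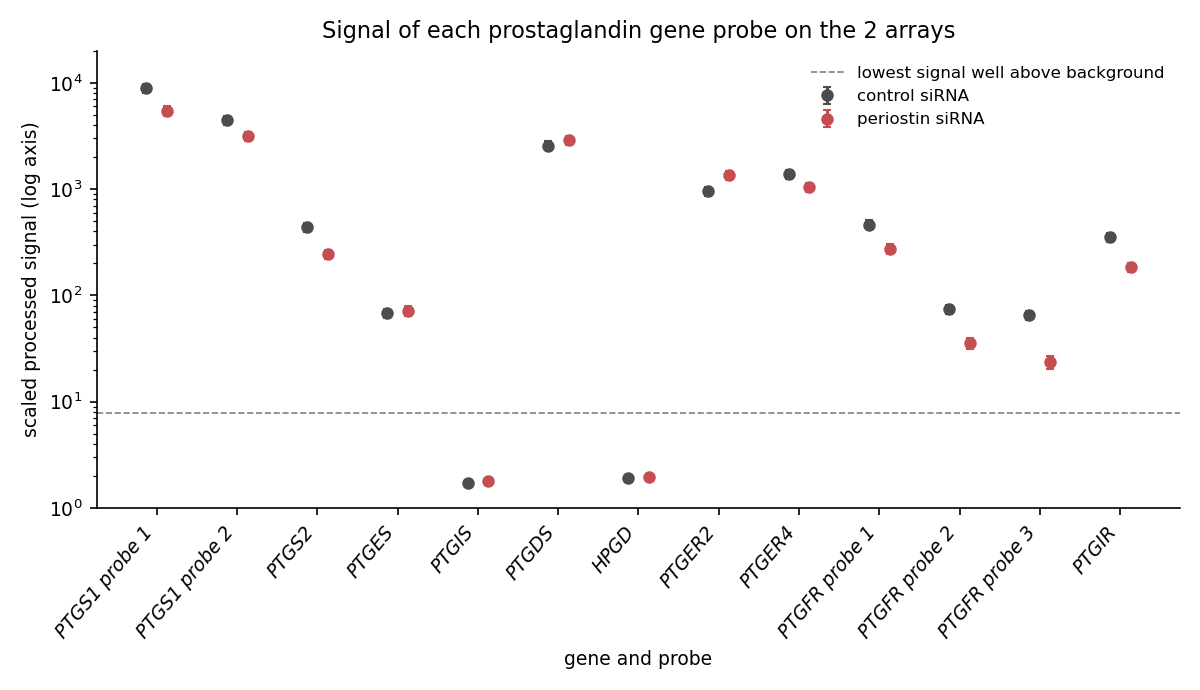
Scaled processed signal (vertical log axis) of each of the 13 probes with control siRNA (grey) and with periostin siRNA (red). Error bars are the propagated spot error, mostly smaller than the points, left out for PTGIS and HPGD where it is as large as the signal, and the dashed line marks the lowest scaled signal flagged as well above background with periostin siRNA, 7.77 (7.55 with control siRNA). Levels of different probes are not comparable with each other. The PTGIS and HPGD points lie below the line on both arrays.

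Among the receptors, those for prostaglandin F and prostacyclin were lower with periostin siRNA, whereas the EP2 receptor for prostaglandin E was higher. PTGIR, the prostacyclin receptor IP, went from 353 to 185, a log2 ratio of -0.93 ± 0.20 or 1.90-fold lower, the lowest of the members by the brightest probe of each gene. PTGFR, the prostaglandin F receptor FP, was measured by 3 probes, and all were lower with periostin siRNA. Its brightest probe went from 464 to 274, a log2 ratio of -0.76 ± 0.20. A dimmer probe for the same transcript went from 74.0 to 35.6, at -1.06 ± 0.22. The probe listed under another transcript of the gene went from 64.9 to 23.6, at -1.46 ± 0.24. The lowest and the highest of the 3 ratios differed by 0.70 with a spot error of 0.32, and the lowest came from the dimmest probe. The probes of PTGFR thus shared a direction, and whether they differed in size was not tested.

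The EP2 and EP4 receptors for prostaglandin E differed in direction. PTGER2, the EP2 receptor, went from 960 to 1349, a log2 ratio of 0.49 ± 0.20 or 1.41-fold higher, whereas PTGER4, the EP4 receptor, went from 1387 to 1046, a log2 ratio of -0.41 ± 0.20 or 1.33-fold lower. The ratio of PTGER2 lay 0.90 above that of PTGER4, with a spot error of 0.29, and 1.42 above that of PTGIR, with the same error. These 3 receptors are all known to raise cyclic AMP, and their transcripts did not move in 1 direction. PTGER2 and PTGER4 each rest on 1 spot, and their directions were the same under every scaling and background correction tried. The remaining prostaglandin E receptors are not members. PTGER1 went from 531 to 480, a log2 ratio of -0.14 ± 0.20. PTGER3 was well above background with periostin siRNA alone, at 11.7 by its brightest probe, which gave a bound of 1.56-fold higher. Its other probes were not well above background on either array. The log2 bound of 0.64 stood beside a spot error of 0.50 for the measured difference, and it was 0.08 under the normexp background correction.

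**Figure D3:**
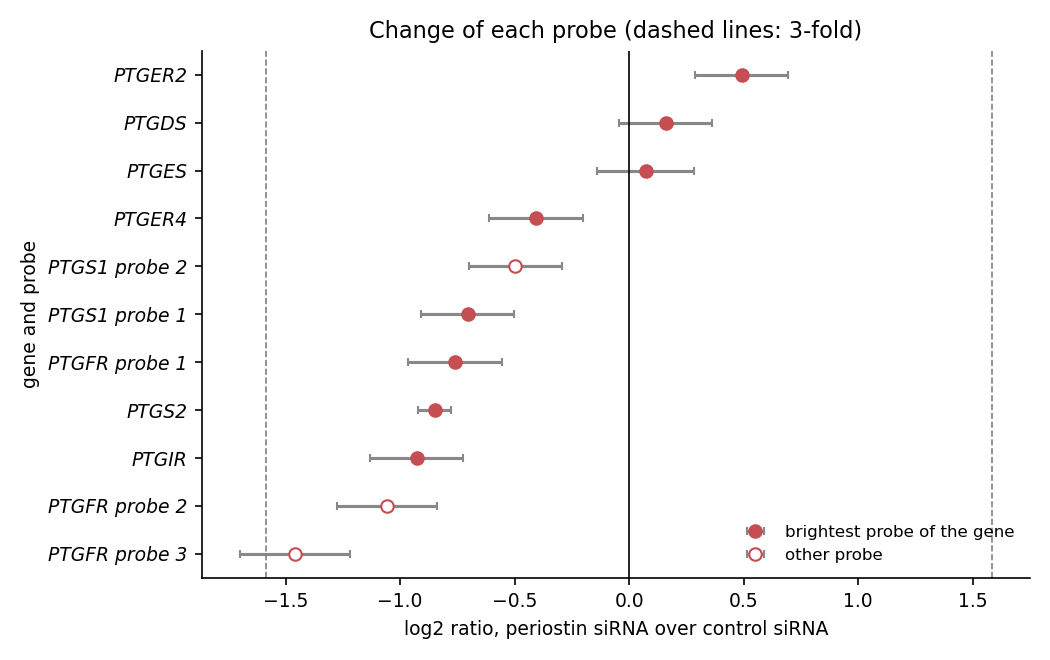
Log2 ratio, periostin siRNA over control siRNA (horizontal axis) for each of the 11 probes with a ratio. Filled points are the brightest probe of a gene and open points its other probes, error bars are the SD over 10 spots for PTGS2 and the propagated spot error otherwise, and dashed lines mark 3-fold in either direction. No probe lies past 3-fold, and the bars of PTGES and PTGDS cross 0.

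Of the 10 members, 8 had a ratio and 2, PTGIS and HPGD, had none. The study drew its line at a 3-fold change. None of the 8 members was lower by more than 3-fold, against 2.75% of the 16052 genes with a ratio or bound, and none was higher by more than 3-fold, against 3.37%. A bound, for a probe clear of the background on 1 array alone, is counted as a ratio here and in the lists below. At 2-fold, 0 of 8 members were lower and 0 were higher by the brightest probe, against 6.42% and 7.97% of all genes, although both dimmer PTGFR probes were past 2-fold, and so was PTGIR, at -1.06, under median scaling. By their brightest probes, the differences of the prostaglandin genes were thus all below the line the study drew. At 1.5-fold, a threshold added after the values had been seen, 4 of 8 members were lower, namely PTGS1, PTGS2, PTGFR and PTGIR, against 13.7% of all genes, and 0 were higher, against 17.6%. PTGFR, at -0.58, was just short of this threshold under the normexp correction. The log2 ratio was below 0 for 5 of 8 members, against 45.5% of all genes, and the median over the 8 members was -0.56, against 0.06 over all genes. As a place among all genes, 7.18% had a lower ratio than PTGIR, 8.17% than PTGS2, 9.50% than PTGFR, 10.6% than PTGS1 and 20.1% than PTGER4, whereas 51.4% had a lower ratio than PTGES, 58.3% than PTGDS and 78.6% than PTGER2. PTGS1, PTGS2, PTGFR and PTGIR thus lay close together low in the distribution, and PTGES, PTGDS and PTGER2 lay in its middle or above.

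**Figure D4:**
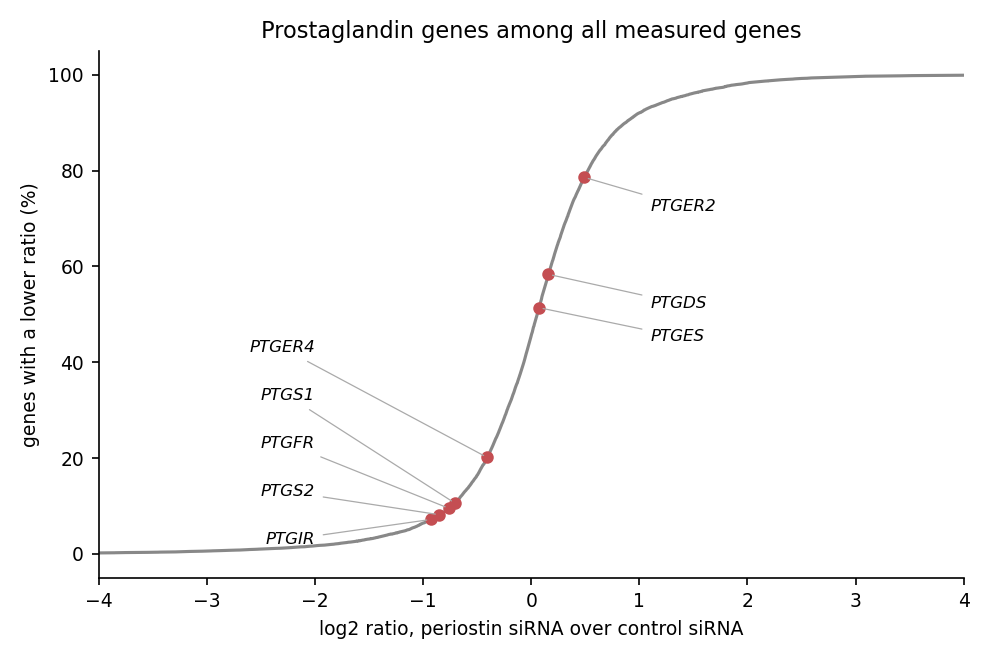
Cumulative share of the 16052 genes with a ratio or bound (vertical axis, %) against their log2 ratio, periostin siRNA over control siRNA (horizontal axis, drawn from -4 to 4), with the 8 members marked in red. PTGIR, PTGS2, PTGFR and PTGS1 lie between 7.18% and 10.6%, and PTGER2 lies at 78.6%.

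The rest of the prostanoid pathway was described with 26 further genes, of which 25 were on the array by accession, all but AKR1C2, and 22 had a ratio. Of these 22, 1 of them a bound, 14 had a log2 ratio above 0 and 8 below 0, against 45.5% of all genes below 0. The median was 0.30 (0.06 over all genes), which was 0.17 under median scaling and 0.11 under the normexp background correction. Past 3-fold, 1 of 22 was higher, against 3.37% of all genes, and 0 were lower, against 2.75%. The higher one was PLA2G4C, a cytosolic phospholipase A2 that acts on membrane phospholipids, which went from 104 to 538, a log2 ratio of 2.37 ± 0.21. PLA2G4A, the cytosolic phospholipase A2 best known for releasing arachidonic acid, was measured by 10 spots and went from 920 to 1213, a log2 ratio of 0.40 ± 0.06 (SD over 10 spots). At the step before the cyclooxygenases, therefore, the ratios of both genes were above 0, while those of PTGS1 and PTGS2 were below it.

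Between 2-fold and 3-fold lay PTGDR2, a prostaglandin D receptor better known from immune cells, which went from 115 to 316 at 1.46 ± 0.21, and PTGFRN, which encodes a protein associated with the prostaglandin F receptor, which went from 29.1 to 10.4 at -1.48 ± 0.36. PTGFRN was dim and depended on the processing, at -0.37 under the normexp correction and past 3-fold under median scaling and quantile normalization. The further enzymes and carriers had smaller ratios. AKR1B1, which can reduce the common precursor to prostaglandin F, gave 0.58 ± 0.20, PTGR1, a reductase of the breakdown route, 0.43 ± 0.20, and ABCC4, an exporter of prostaglandins, -0.49 ± 0.20. The prostaglandin E synthases PTGES2 and PTGES3, which are not induced in the way PTGES is, gave 0.02 ± 0.20 and -0.48 ± 0.20, the first with a sign that changed under median scaling and the normexp correction. The related reductases AKR1C1 and AKR1C3 gave 0.36 and 0.38, and AKR1C1 is nearly identical in sequence to AKR1C2, so its probe may read both. PLA2G2A, PLA2G5 and HPGDS, the prostaglandin D synthase of mast cells and other blood cells, were not well above background on either array.

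Genes known to respond to cyclic AMP, the second messenger of EP2, EP4 and IP, made up a list of 14, of which 13 had a ratio and NR4A1 had none. The ratio was below 0 for 10 of 13, against 45.5% of all genes, and the median was -1.03, against 0.06. More than 3-fold lower were 4 of 13, against 2.75% of all genes, and 0 were more than 3-fold higher, against 3.37%. This list, like the others, was drawn up with earlier results of these data known, so the shares are a description and no independent check. NR4A2, an orphan nuclear receptor and early response gene, went from 712 to 43.4 by its brightest probe, a log2 ratio of -4.03 ± 0.21, and a second probe gave -4.58. AREG, a ligand of the epidermal growth factor receptor, went from 11910 to 1152, at -3.37 ± 0.20, and its second probe gave -3.40. FOS, a subunit of the transcription factor AP-1, went from 93.7 to 22.0, at -2.09 ± 0.24. PDE4D, a phosphodiesterase that degrades cyclic AMP, was at least 8.94-fold lower, with 69.5 in the control and a spot within the background after knockdown, while a dimmer probe gave at least 1.71-fold lower and the remaining probe was below background on both arrays. NR4A2 and AREG were past 3-fold under every setting tried, whereas FOS, at -1.02, and PDE4D, at -1.03, were not under the normexp correction.

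Further genes of that list lay between 2-fold and 3-fold lower, DUSP1, a phosphatase of MAP kinases, at -1.44 ± 0.10 (SD over 10 spots), PDE4B, another phosphodiesterase, at -1.31 ± 0.20 and NR4A3 at -1.03 ± 0.23, which was -0.43 under the normexp correction. RGS2, a regulator of G protein signalling, was higher, from 1926 to 3106 at 0.69 ± 0.04 (SD over 10 spots), SIK1 gave 0.33 ± 0.21, and CREM gave 0.09 ± 0.20, a sign that changed under median scaling and with its second probe, at -0.47. Most of these genes respond to growth factors and stress as well as to cyclic AMP, and their values do not measure cyclic AMP. Transcripts of the receptors PTGER4 and PTGIR were lower in the same comparison and that of PTGER2 was higher, and the relation between them and the list was not tested.

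Genes known to induce or restrain PTGS2 formed a list of 16, of which 15 had a ratio and TNF had none. The ratio was below 0 for 8 of 15, against 45.5% of all genes, and the median was -0.06, against 0.06. Past 3-fold, 1 was lower and 1 higher, against 2.75% and 3.37%. Single genes in it were far from 0. IL1B, a cytokine that induces PTGS2, went from 324 to 103, at -1.65 ± 0.10 (SD over 10 spots), and its receptor IL1R1 gave -0.54 ± 0.20. CEBPB, a transcription factor that binds the PTGS2 promoter, went from 20095 to 6705, at -1.58 ± 0.03 (SD over 10 spots), just short of the 3-fold line, which it passed under median scaling and quantile normalization. IL6, often induced along with PTGS2, went the other way, from 92.1 to 335 at 1.86 ± 0.21. NFKBIA, the inhibitor and target of NF-κB, went from 3677 to 10533, at 1.52 ± 0.05 (SD over 10 spots). TSC22D3, a gene induced by glucocorticoids, went from 1942 to 3811, at 0.97 ± 0.20. Under the normexp correction IL1B, at -1.23, and IL6, at 1.44, were no longer past 3-fold. DUSP1 belongs to this list as well as to that of cyclic AMP response genes.

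**Figure D5:**
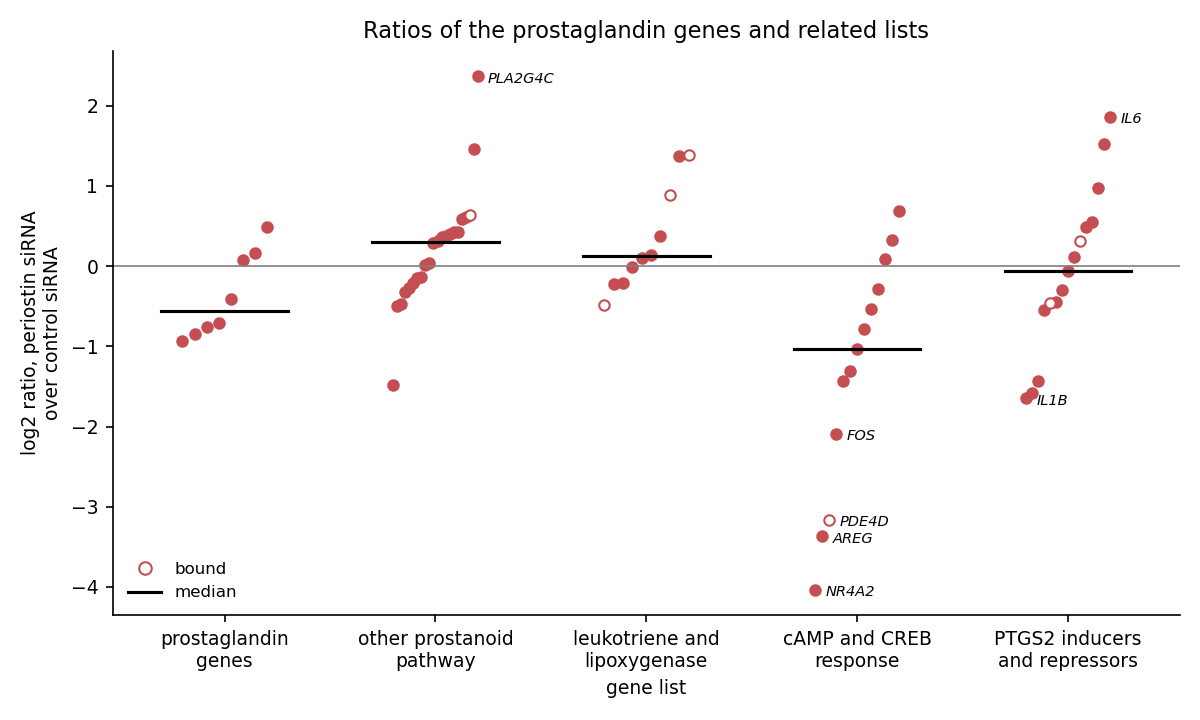
Log2 ratio, periostin siRNA over control siRNA (vertical axis) of the genes with a ratio in the prostaglandin gene set and in 4 related lists, 1 point per gene by its brightest probe. Open points are bounds, for probes clear of the background in 1 condition alone, black lines are medians, and genes past 3-fold are named. The medians are -0.56 for the prostaglandin genes, 0.30 for the other prostanoid pathway genes and -1.03 for the cyclic AMP response genes.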

How the data were processed

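Total RNA of MRC-5 cells was labelled with Cy3 and hybridised to Agilent SurePrint G3 Human arrays, 1 for each condition. The scanner files deposited by the authors were used, whose intensity values were background-subtracted and detrended by Feature Extraction (version 11.5.1.1 per the file headers, 12.0.3.1 per the submitters' processing notes) and not scaled between arrays, next to a table of normalized intensity values, where a probe with a single spot has the scanner intensity multiplied by 3.65 (control siRNA) or 3.54 (periostin siRNA). How that table was normalized is not given in the sources used here. The array was annotated on hg19.

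Processed signals were divided by the 75th percentile over the 58717 non-control spots of their array (372 and 383) and taken to log2. Signals are printed multiplied back by the common percentile. Repeated spots were averaged as log2 values, and the brightest probe stood for a gene. A probe was taken as well above background where no more of its spots lacked the flag than had it. Where this held on 1 array alone, a bound was given, in which the dim side was set to the lowest flagged signal of its array, or to the probe's own where that was higher. A gene below background on both arrays got no ratio. Names came from RefSeq (GRCh38.p14), which named 65.1% of the spots. No coordinate of an array probe is given, because that build differs from hg19, and the promoter windows were matched by symbol, for 8 of the 10 members.

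Every member is named with all its probes. Of the further lists, genes past 3-fold and the brightest of those past 2-fold were named by rule, and the others were picked after their values were seen. The members and lists were chosen with earlier results of these data known. The alternatives were normexp with an offset of 50 (on median spot brightness), quantile normalization, median or no scaling, scaling on spots well above background, the deposited table, the mean over probes, filters on dim or outlier spots, and thresholds of 1.5-fold, 2-fold and 4-fold. The gene-level ratios were tested on simulated data. Python 3.11.15, numpy 2.4.6, pandas 2.3.3, matplotlib 3.10.9, R 4.3.3 and limma 3.58.1 were used.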

Additional observations from a re-analysis of the deposited data

How the results depend on the processing

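No paired analysis was possible because there was a single array for each siRNA, and leaving out a replicate could not be done either. The single array per condition, and for all members but PTGS1, PTGS2 and PTGFR the single spot, limit the precision. No member was past 3-fold, in either direction, under any scaling, background correction, source of the values or filter tried, and none was past 2-fold or 4-fold with the processing used in the report, although PTGIR, at -1.06, passed 2-fold under median scaling and PTGFR with the mean over its probes, whereas 4 were lower at the 1.5-fold threshold added after seeing the data. Of the 8 members with a ratio, all but PTGES kept their sign under these settings. Under median scaling the centre of all genes moved by -0.13, which took PTGS2 to -0.98 and the medians to -0.68 for the members, 0.17 for the other prostanoid pathway genes and -1.16 for the cyclic AMP response genes. The normexp correction, whose offset pulls dim ratios towards 0 by construction, gave -0.69 for PTGS2, -0.58 for PTGFR, just under 1.5-fold, 0.11 for the other pathway genes and -0.71 for the cyclic AMP response genes. The mean over its 3 probes gave -1.09 for PTGFR, and the cyclic AMP median was -0.91 over genes whose probe cleared the background in both conditions. The settings for the cyclic AMP list were also chosen after seeing the data. Over all genes, 441 were lower and 541 higher by more than 3-fold, against 190 and 143 under normexp, so that the higher share of these calls was 55.1% against 42.9%.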

Other observations

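The other route from arachidonic acid, through the lipoxygenases to leukotrienes, was described with 13 genes. Among them EPHX2 is neither a lipoxygenase nor a leukotriene gene, and it is included in the counts and the median below. Of these, 10 had a ratio, 3 of them as bounds. The log2 ratio was above 0 for 6 of the 10 and below 0 for 4, against 45.5% of all genes below 0. Past 3-fold, 0 genes were lower and 0 were higher, against 2.75% and 3.37% of all genes. The median was 0.12, against 0.06 over all genes, and -0.006 under median scaling. ALOX5, the enzyme that starts leukotriene synthesis, was not well above background on either array, with signals of 2.39 and 2.68 over 10 spots, and neither were ALOX12 and CYSLTR2. ALOX5AP, the protein that presents arachidonic acid to ALOX5, was well above background with periostin siRNA alone, at 13.9, and was at least 1.85-fold higher, a log2 bound of 0.89 that was 0.19 under the normexp correction. LTA4H, the hydrolase that makes leukotriene B, was bright on both arrays, at 8957 and 9620, a log2 ratio of 0.10 ± 0.20 whose sign changed under median scaling. LTC4S, the synthase of leukotriene C, went from 24.0 to 61.9, at 1.37 ± 0.24, which was 0.47 under the normexp correction. EPHX2, a soluble epoxide hydrolase, was well above background with periostin siRNA alone, at 19.8, and was at least 2.62-fold higher, a log2 bound of 1.39 that was 0.41 under that correction.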
